A study of Mus musculus with 8 samples.

Results

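Macrophages of dissociated mouse tumours were followed through 10 genes chosen by symbol: the CSF1 receptor gene Csf1r, the surface receptor genes Adgre1, Mrc1, Cd14 and Clec7a, the secreted products Apoe, Lyz2 and Pf4, and the signalling adaptors Fcer1g and Tyrobp. All 10 were among the 17580 gene identifiers of the library tables and among the 6933 genes of the deposited expression table. The cells came from 4T1 tumours, which grow from a mouse mammary carcinoma line, 10 days after subcutaneous injection into Balb/c mice. Digestion with a protease of Bacillus licheniformis lasted 1 h, after which red cells, debris and dead cells were removed. The 4 groups were 37C without inhibitor, 37C with inhibitor, 4C without inhibitor and 4C with inhibitor. The inhibitor was actinomycin D, a drug used to block transcription, at 2 nM. How far this dose blocked transcription was not measured here. Every suspension pooled 6 tumour pieces, each from another mouse, and was split into the aliquots A and B, so a group had 2 libraries of the same cells. The p-values below therefore measure only the spread between aliquots, and no group had a second suspension. Warm and cold tubes were mixed on different dissociator models, the warm one heated, so instrument and temperature cannot be told apart.

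Macrophages live and divide on signals from CSF1 and IL-34 through the receptor tyrosine kinase encoded by Csf1r. They sense microbes and dying cells through surface receptors, among them the lipopolysaccharide co-receptor CD14, the mannose receptor CD206 (Mrc1) and the beta-glucan receptor Dectin-1 (Clec7a). Many activating receptors have no signalling tail and pair with the ITAM adaptors FcR gamma chain (Fcer1g) and DAP12 (Tyrobp), which natural killer (NK) cells use as well.

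The deposited annotation names 654 cells of 4 types: 325 tumour cells, 154 T cells, 109 macrophages and 66 NK cells. Levels below are CPM, a gene's share of the UMIs (counted molecules) of the cells named, in counts per 1e6, without further scaling. The annotated cells gave 158314 to 199929 UMIs per 37C library but 23212 to 65149 per 4C library. Barcodes are short, and 318 of 23660 distinct barcodes occurred in more than 1 library. A pair of annotated cells, 2 in all, had a barcode that was annotated in both of their libraries. Macrophages were 92 of 433 annotated cells at 37C and 17 of 221 at 4C, and single 4C libraries held 8 and 3 (without inhibitor) and 1 and 5 (with inhibitor). All values per macrophage at 4C rest on these 17 cells.

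The start regions of 3 genes are shown, chosen among those that RefSeq (GRCm38.p6) holds and that carry GAGGAA. Apoe also carries it and is not shown. GAGGAA is a core to which PU.1 (encoded by Spi1), the myeloid transcription factor, binds. The letters are the 250 bases before the start site on the gene's strand. Capitals mark GAGGAA or its reverse complement, and in Pf4 the longer GAGGAAGT, which contains it.
Pf4, chr5:90772185-90772434, plus strand: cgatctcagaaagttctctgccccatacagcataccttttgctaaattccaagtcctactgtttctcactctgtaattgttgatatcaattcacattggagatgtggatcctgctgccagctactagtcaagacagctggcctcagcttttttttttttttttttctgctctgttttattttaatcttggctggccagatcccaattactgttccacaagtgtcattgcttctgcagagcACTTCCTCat
Mrc1, chr2:14229164-14229413, plus strand: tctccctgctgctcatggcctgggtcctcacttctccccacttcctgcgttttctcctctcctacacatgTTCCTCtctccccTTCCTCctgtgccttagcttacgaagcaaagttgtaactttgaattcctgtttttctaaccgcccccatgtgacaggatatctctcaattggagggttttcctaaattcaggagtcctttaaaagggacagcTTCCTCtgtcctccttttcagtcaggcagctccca
Clec7a, chr6:129472780-129473029, minus strand: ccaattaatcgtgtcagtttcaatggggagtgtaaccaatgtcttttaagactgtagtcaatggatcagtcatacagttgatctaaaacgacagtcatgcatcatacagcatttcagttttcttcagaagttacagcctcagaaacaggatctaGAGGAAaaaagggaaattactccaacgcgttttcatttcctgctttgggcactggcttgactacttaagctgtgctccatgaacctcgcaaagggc

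RefSeq start regions of 300 bases (250 before and 50 after the start site) were held for 6 of the 10 genes, Apoe, Lyz2, Pf4, Clec7a, Mrc1 and Fcer1g, with 9 start regions in all because a gene can have several. GAGGAA occurred on either strand in 6 of the 9 regions (of Apoe, Pf4, Clec7a and Mrc1) and in 28.28% of all 32851 mouse start regions of that length. The regions of Clec7a overlap almost fully and hold the same copy, at -96 and -90, and some regions of Apoe overlap too. The 9 regions are thus not separate sequences. Mrc1 carried 3 copies, with first bases at -180, -167 and -35 from the start site. GAGGAAGT occurred in Pf4, with its first base at -10, and in 3.202% of all regions. The AP-1 motif TGANTCA occurred in 0 of the 9 regions and in 7.808% of all. These matches describe letters in a window and are not sites of measured binding.

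Csf1r (ENSMUSG00000024621.15, GRCm38 chromosome 18, 61100598 to 61132149) had 855 CPM in annotated macrophages, against 19.3 CPM in NK cells, 8.24 in T cells and 12.02 in tumour cells. Macrophages held 93.4% of its 136 annotated counts. The other identity genes had a like distribution. Adgre1 (ENSMUSG00000004730.14, chromosome 17, 57358691 to 57483527), which encodes the surface antigen F4/80, was sparse: 19 of 20 counts lay in macrophages, in 14 of 109 cells, and NK and T cells held 0 counts. The floor of 3 counts over the type was 57.9 CPM in NK cells and 24.7 CPM in T cells, and the exact 95% Poisson intervals for a count of 0 reached 71.3 and 30.4 CPM. Mrc1 (ENSMUSG00000026712.3, chromosome 2, 14229392 to 14332057) had 1845 CPM in macrophages and at most 8.59 CPM in any other type, with 97.9% of its counts in macrophages.

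The secreted products gave the largest counts. Lyz2 (ENSMUSG00000069516.7, chromosome 10, 117277331 to 117282321), a lysozyme, had 8593 CPM in macrophages, against 174 CPM in NK cells, 90.7 in T cells and 49.8 in tumour cells. Its near-identical neighbour Lyz1 can share reads with it, and the sources used here do not say how such reads were counted. Apoe (ENSMUSG00000002985.15, chromosome 7, 19696109 to 19699188), a lipid carrier, had 6216 CPM in macrophages and at most 63.5 CPM elsewhere. Pf4 (ENSMUSG00000029373.7, chromosome 5, 90772435 to 90773383), a chemokine known from platelets, had 3152 CPM in macrophages and at most 19.3 CPM elsewhere. Pf4 was also uneven among macrophages: 43 of 109 held a UMI, and 1 cell held 65 of the 468 counts.

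The microbial sensors were also highest in macrophages, while the order of the other types differed between them. Cd14 (ENSMUSG00000051439.6, chromosome 18, 36725067 to 36726798) had 1589 CPM in macrophages, 96.6 in NK cells, 41.2 in T cells and 42.9 in tumour cells, and 87.1% of its counts lay in macrophages. Clec7a (ENSMUSG00000079293.11, chromosome 6, 129461591 to 129472779) had 579 CPM in macrophages, 41.2 in T cells, 3.43 in tumour cells and 0 counts in NK cells. That 0 makes the macrophage level at least 9.99-fold higher than in NK cells, from a floor of 3 counts over the type.

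The adaptors departed from this pattern in NK cells. Fcer1g (ENSMUSG00000058715.11, chromosome 1, 171229572 to 171234365) had 3374 CPM in macrophages and 1198 in NK cells, a ratio of 2.82 (95% counting interval 2.16 to 3.73). Tyrobp (ENSMUSG00000030579.9, chromosome 7, 30413760 to 30417585) had 3259 CPM in macrophages and 1796 in NK cells, a ratio of 1.81 (1.45 to 2.29). In T cells and tumour cells both were low, at 107 and 15.5 CPM for Fcer1g and at 98.9 and 29.2 CPM for Tyrobp. A UMI of Tyrobp was found in 60.6% of NK cells (median 599 UMIs per cell), 74.3% of macrophages (1133 UMIs), 7.79% of T cells (503.5 UMIs) and 4.62% of tumour cells (1359 UMIs). With every cell thinned to 200 UMIs, the shares were 28.8% of NK cells and 38.6% of macrophages. For Fcer1g 33 of 66 NK cells and 81 of 109 macrophages held a UMI, and 21.2% and 38.75% after thinning.

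The other 8 genes had a UMI in 0 to 10.6% of NK cells, 0 to 5.84% of T cells and 0.308% to 8.92% of tumour cells. Free RNA in droplets gives such low shares to every cell type, and the part it plays here was not tested. At least 3 of the 10 genes were detected in 91 of 109 macrophages, 5 of 66 NK cells, 2 of 154 T cells and 8 of 325 tumour cells. No macrophage held all 10, and the median was 6. The types were drawn from the expression of all genes, so this contrast between types is a description without a test.

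**Figure D1:**
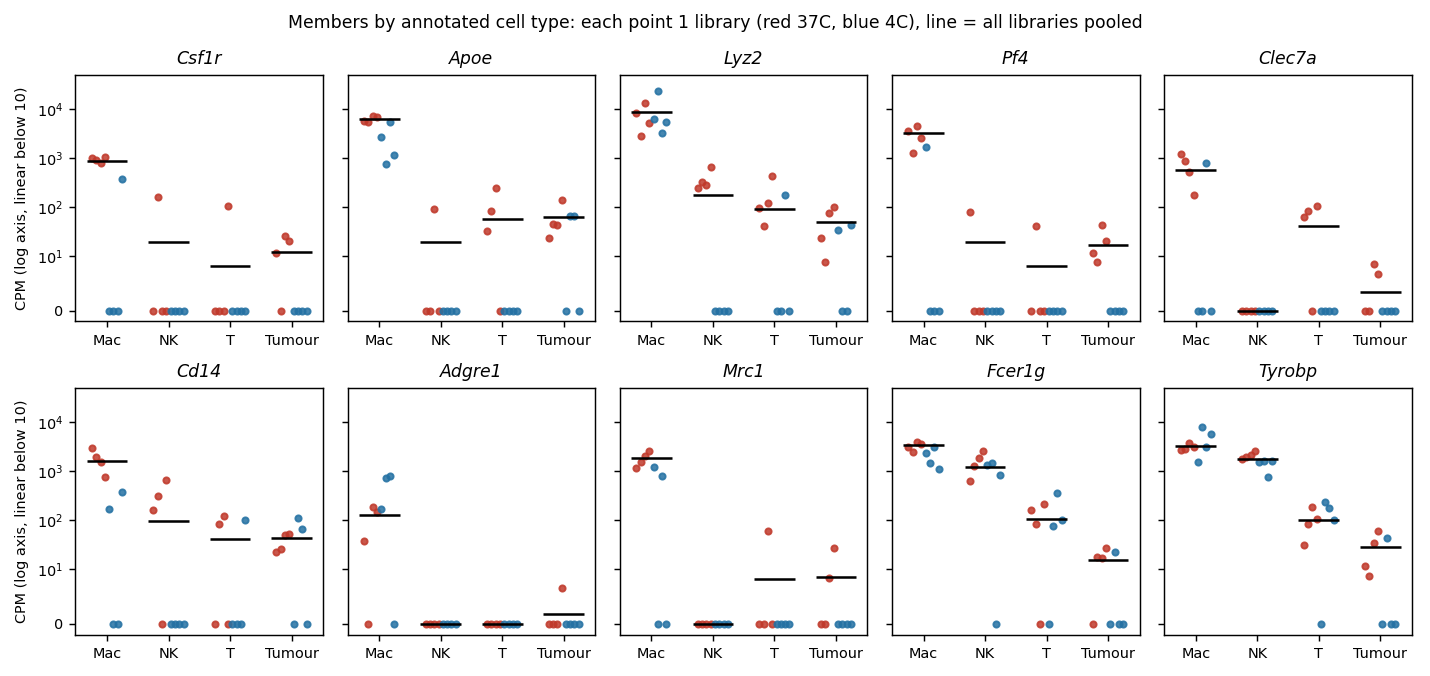
Level of each gene by annotated cell type, in CPM on an axis that is logarithmic above 10 and linear below it. Each point is 1 library (red 37C, blue 4C) and each line the type pooled over libraries. Fcer1g and Tyrobp lie near the macrophage level in NK cells (1198 and 1796 CPM), while the other 8 genes lie far below it.

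Within single macrophages the genes were only loosely tied to each other. Over the 45 pairs and 109 cells, Pearson's r of the natural log values ran from -0.07 to 0.55 with a median of 0.14. The highest pair was the adaptors Fcer1g and Tyrobp, with r = 0.55 and both detected in 71 cells. Apoe and Pf4 followed at 0.50, and Clec7a and Cd14 at 0.42. Mrc1 went with Pf4 (0.39) and Apoe (0.39), while Apoe and Clec7a had r = -0.05 and Adgre1 had its lowest value with Apoe (-0.07). These cells share libraries and differ in depth, and counts of Adgre1 and Clec7a are sparse, so the values are descriptions.

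Over the 30 library-by-type averages with at least 3 cells, the genes most like the mean of the 10 were Cd68 (Pearson's r = 0.95), Tgfbi (0.95), Ccl9 (0.94), Ctss (0.92) and Cfp (0.92), out of 6904 genes compared. For single genes the closest were C1qa for Mrc1 (0.99), Vcan for Csf1r (0.97), Slc7a8 for Pf4 (0.97), Spon1 for Clec7a (0.98), Cd68 for Lyz2 (0.97) and Apoe (0.95), Cysltr1 for Adgre1 (0.96) and Ccl24 for Cd14 (0.93). The adaptors were closest to Lilr4b (Fcer1g, 0.84) and Lilrb4a (Tyrobp, 0.83), a pair of near-identical receptor genes that can share reads. These points share libraries and cell types, and most of the variation lies between macrophages and other cells.

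The first comparison sets warm against cold dissociation in the macrophage signal summed over all annotated cells of a library. Csf1r had 177 and 122 CPM of annotated UMIs in 37C without inhibitor (A and B), 235 and 204 in 37C with inhibitor, 0 and 0 in 4C without inhibitor, and 0 and 22.6 in 4C with inhibitor. Every 37C library lay above every 4C library, and the single count at 4C set the last value. Apoe had 985 and 741 CPM in 37C without inhibitor and 1991 and 1334 with it, against 303 and 61.4 CPM in 4C without inhibitor and 345 and 67.7 with it. Here too the temperatures did not overlap, and at 4C the A aliquots lay well above the B aliquots.

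Mrc1 had 202 and 194 CPM in 37C without inhibitor and 565 and 485 with it, then 133 and 0 in 4C without inhibitor and 43.1 and 0 with it. Cd14 had 524 and 298 CPM in 37C without inhibitor and 470 and 184 with it, then 19.0 and 76.7 in 4C without inhibitor and 43.1 and 45.1 with it. Both genes were separated by temperature. Csf1r, Apoe, Cd14 and Mrc1 were thus 4 of 9 tested genes whose 37C libraries all lay above every 4C library, against 5.37% of the 3391 genes tested.

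Pf4 and Lyz2 overlapped between temperatures. Pf4 had 619 and 176 CPM in 37C without inhibitor and 1250.4 and 475 with it, against 189.7 and 0 in 4C without inhibitor and 0 and 0 with it. Its 10 counts at 4C came from 1 library, 4C without inhibitor A. Lyz2 had 1478 and 377 CPM in 37C without inhibitor and 3701 and 1022 with it, against 702 and 491 in 4C without inhibitor and 215 and 338 with it. The B aliquot at 37C without inhibitor lay below both 4C libraries without inhibitor.

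Clec7a had 221 and 122 CPM in 37C without inhibitor and 145 and 40.9 with it, and 1 count in all at 4C (43.1 CPM in 4C with inhibitor A). Adgre1 had 17 counts at 37C and 3 at 4C, so no order could be read from it. Among the adaptors, Fcer1g had 613 and 389 CPM in 37C without inhibitor and 1195 and 689.8 with it, against 398 and 184 in 4C without inhibitor and 258 and 248 with it. Tyrobp had 613 and 449.6 CPM in 37C without inhibitor and 1165 and 634 with it, against 322 and 384 in 4C without inhibitor and 258 and 677 with it. For both adaptors a 4C library lay above the lowest 37C library.

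In edgeR's quasi-likelihood test with Benjamini-Hochberg adjustment over 3391 genes, 8 of the 9 tested genes were higher at 37C and 0 lower, averaged over inhibitor, against 2.74% of all genes called higher and 1.24% lower. Adgre1 was too sparse to be tested. The low-count filter needs enough counts in only as many libraries as 1 group holds. Csf1r (135 counts at 37C and 1 at 4C) and Clec7a (92 and 1) could pass it only through 37C. The calls, separations and medians for temperature, here and in the comparisons above and below, carry that selection. The median log2 difference of the 9 was 2.98, against 0.04 over all genes. With the 3 genes that had 0 counts in a 4C group set at their floor, that median was 2.84. These sums mix the number of macrophages with the level per macrophage, and this fit does not separate them. The share of annotated UMIs from NK cells was 4.34% at 37C (0.782% to 7.88% over libraries) and 11.1% at 4C (5.72% to 19.1%), and that from T cells 11.3% and 21.5%. In the same edgeR fit all 9 tested macrophage markers of 12 were higher at 37C. Of these, Csf1r, Apoe, Lyz2, Pf4 and Mrc1 are already counted above, and Cd68, C1qa, C1qb and C1qc are the others. Of 9 T cell markers 3 were lower (Cd3g, Cd8b1 and Trbc1) and 0 higher, and of the 3 tested NK cell markers 2 were lower (Gzma and Gzmb). The part of these shares in the values of single genes was not tested.

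By edgeR's quasi-likelihood test the surface receptors were 5.49 ± 0.79 higher on the log2 scale for Csf1r (SE, adjusted p = 0.000221), 3.42 ± 0.57 for Mrc1 (0.000927), 2.98 ± 0.50 for Cd14 (0.000927) and 4.97 ± 1.08 for Clec7a (0.0103). The secreted products were higher by 2.84 ± 0.37 for Apoe (adjusted p = 4.57e-05), 5.92 ± 1.00 for Pf4 (0.00123) and 1.90 ± 0.40 for Lyz2 (0.00847) in the same edgeR fit. Of the adaptors, Fcer1g was higher by 1.42 ± 0.30 (adjusted p = 0.00848), while Tyrobp, at 0.77 ± 0.29 (0.151), was not called by edgeR. Tyrobp was called without 37C inhibitor B (0.95), without 4C no inhibitor B (0.95) and without 4C inhibitor B (1.42). DESeq2's Wald test called 6 of the 9 higher, against 1.18% of all genes, but neither Lyz2 (adjusted p = 0.145) nor Pf4 (0.114). Thinned to the smallest library total, Fcer1g had a difference of 0.12 and was not called. With 1 library left out, Mrc1 ran from 2.87 to 6.44 (without 4C no inhibitor A) and to 5.43 without 4C inhibitor A, Pf4 from 5.28 (without 37C no inhibitor A) to 9.18 (without 4C no inhibitor A), Csf1r to 7.51 (without 4C inhibitor B) and Clec7a from 4.30 (without 37C inhibitor A) to 7.02 (without 4C inhibitor A). Apoe reached 3.68 without 4C no inhibitor A and 3.58 without 4C inhibitor A, Cd14 3.78 without 4C no inhibitor B, and Lyz2 fell to 1.25 without 37C no inhibitor A and 1.29 without 37C inhibitor A. Each of these 7 genes stayed called in every such fit that tested it. The fitted values of Csf1r, Clec7a and Pf4 depend on the prior count, since a 4C group had 0 counts of each. Over all alternatives, all barcodes among them, the lowest differences were 2.67 for Csf1r, 3.02 for Pf4, 2.92 for Clec7a and 1.76 for Mrc1. For Cd14 the lowest was 2.39, for Apoe 2.32 and for Lyz2 1.25.

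**Figure D2:**
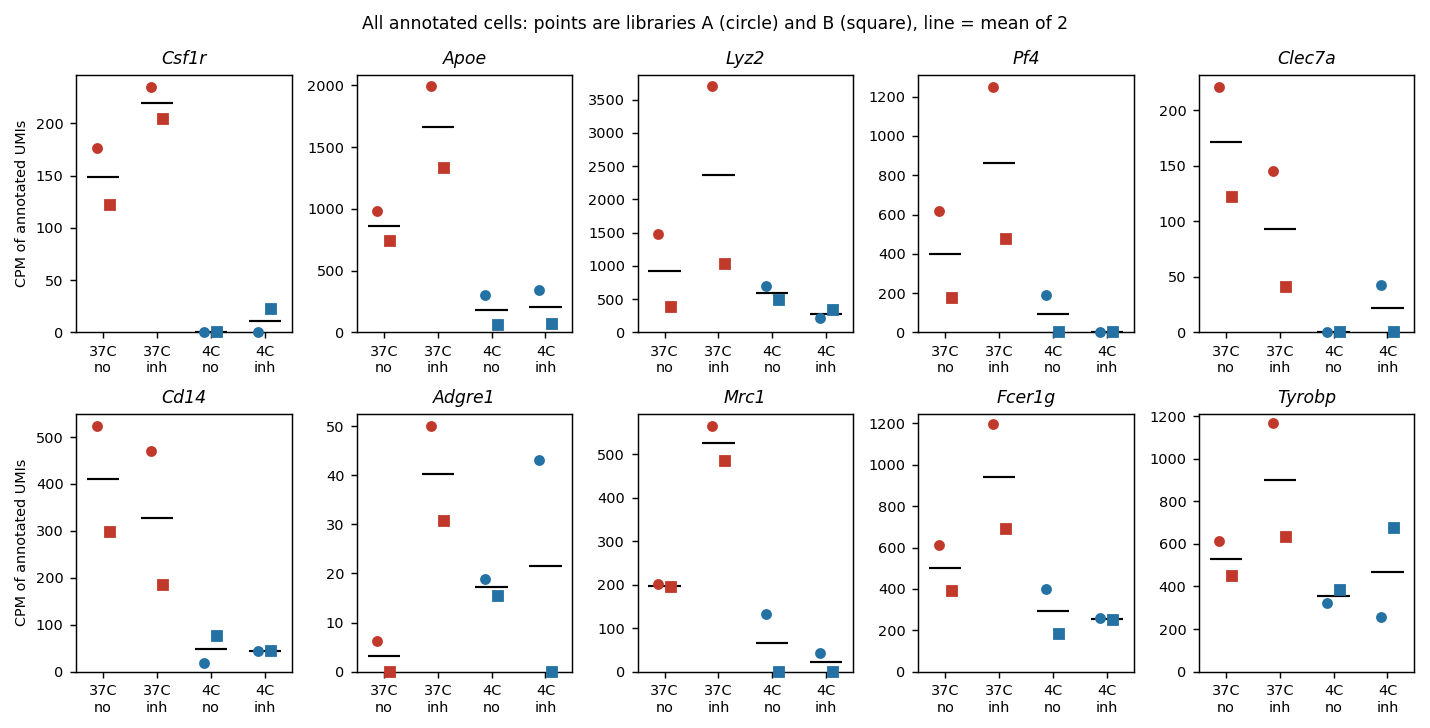
Level of each gene over all annotated cells, in CPM of annotated UMIs, by group (37C or 4C, no inhibitor or inhibitor). Circles are aliquot A, squares aliquot B and lines the mean of both. The 37C libraries of Csf1r, Apoe, Cd14 and Mrc1 all lie above the 4C libraries, whereas those of the other 6 genes overlap.

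Without inhibitor 4 of the 9 genes were higher at 37C (Apoe, Csf1r, Cd14 and Clec7a) and 0 lower in the edgeR fit, against 0.973% and 0.0885% of all genes. Against the floor of 3 counts over the 4C group, Csf1r was at least 5.84-fold higher and Clec7a at least 6.69-fold higher. By the Wald test of DESeq2, Apoe and Cd14 were called higher, against 0.472% of all genes. Pf4 was not called (2.19, adjusted p = 0.277 by edgeR), but was in 4 of the 8 fits that left out 1 library, and Mrc1 was without 4C no inhibitor A. With inhibitor 6 of the 9 were higher (Apoe, Csf1r, Mrc1, Pf4, Fcer1g and Lyz2) and 0 lower, against 1% and 0.796% of all genes. The 4C libraries with inhibitor held 0 counts of Pf4, and its level at 37C was at least 19.5 times the floor of 3 counts over that group. This count fell to 3 without 4C inhibitor A and to 2 without 4C inhibitor B. It was 3 in DESeq2's Wald test, against 0.354% of all genes.

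The interaction of temperature and inhibitor asks whether the 37C to 4C difference changed with actinomycin D. Apoe and Csf1r were called both with and without the inhibitor. edgeR called 0 of the 9 genes and 0% of all genes for the interaction, DESeq2 also called 0, and 3 of the 9 (Lyz2, Pf4 and Mrc1) had an unadjusted p under 0.05, among 250 of 3391 genes. Lyz2 had a log2 difference of 0.66 ± 0.52 without inhibitor and 3.13 ± 0.61 with it, and an interaction of -2.47 ± 0.81 (SE, adjusted p = 0.417 by edgeR). Leaving out 1 library called Lyz2 for the interaction in 4 of the 8 cases, and 3 genes (Mrc1, Pf4 and Lyz2) without 4C no inhibitor B.

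Actinomycin D itself was compared within each temperature. At 37C edgeR called 0 of the 9 genes higher, against 0.147% of all genes, and 0 lower, against 1.06%. In that fit 6 of the 9 had an unadjusted p under 0.05 among 286 genes, and DESeq2 called 0 of the 9, against 0.206% of all genes in either direction. All 6 had higher values with the inhibitor: Mrc1 at 1.43 ± 0.38 (SE, adjusted p = 0.0816 by edgeR), Lyz2 at 1.39 ± 0.48 (0.236), Pf4 at 1.15 ± 0.53 (0.549), Apoe at 0.97 ± 0.38 (0.380), Fcer1g at 0.94 ± 0.34 (0.293) and Tyrobp at 0.79 ± 0.35 (0.522). Cd14 (-0.29 ± 0.38) and Clec7a (-0.84 ± 0.50) had lower values. This ran beside the number of macrophages, which were 18 and 17 cells without and 33 and 24 cells with the inhibitor at 37C. Among the 9 tested macrophage markers edgeR called 3 higher with the inhibitor at 37C, the complement genes C1qa, C1qb and C1qc. Calls among the 10 genes rose to 5 (Apoe, Mrc1, Pf4, Fcer1g and Lyz2) without 4C no inhibitor A, to 4 without 4C no inhibitor B, and to 1 without 37C no inhibitor A, 37C inhibitor B or 4C inhibitor B in turn. At 4C edgeR called 0 of the 9 and 0% of all genes, 0 of the 9 had an unadjusted p under 0.05 among 172 genes, and DESeq2 called 0.

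Cell number was set apart from the level per cell in the annotation itself. Macrophages were 14.8% to 30.8% of a library's annotated cells at 37C and 2.94% to 13.6% at 4C. They held 19.1% of annotated UMIs at 37C and 6.01% at 4C, and the median macrophage had 1473 UMIs at 37C and 568 at 4C. The 10 genes made up 3.05% of macrophage UMIs at 37C and 1.80% at 4C, and a macrophage showed a median of 6 of them at 37C and 2 at 4C.

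Counts expected at 4C were computed from the 37C level of each type and the 4C makeup of UMIs, and again from the 37C levels with the 37C makeup. For Tyrobp 78 counts were observed at 4C (95% Poisson interval 61.7 to 97.3), 83.3 were expected from the type levels and 136 from both. The interval held the value from type levels but not the value from both. For Adgre1, 3 counts were observed and 1.54 expected from type levels, also within the interval (0.619 to 8.77). The expected counts carry an error of their own that is not included.

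For the other 8 genes the observed count lay below the expectation from the type levels. Apoe had 31 counts, with 84.75 expected from type levels and 242 from levels and makeup. Lyz2 had 89 counts, with 114 and 319 expected, and Fcer1g 50, with 71.4 and 138 expected. Pf4 had 10 counts with 40.7 and 121 expected, Mrc1 8 with 23.3 and 70.2, Cd14 9 with 28.8 and 67.6, Csf1r 1 with 13.1 and 34.8, and Clec7a 1 with 9.82 and 23.7. These intervals cover counting error only, and counts of a few cells vary more than that.

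**Figure D3:**
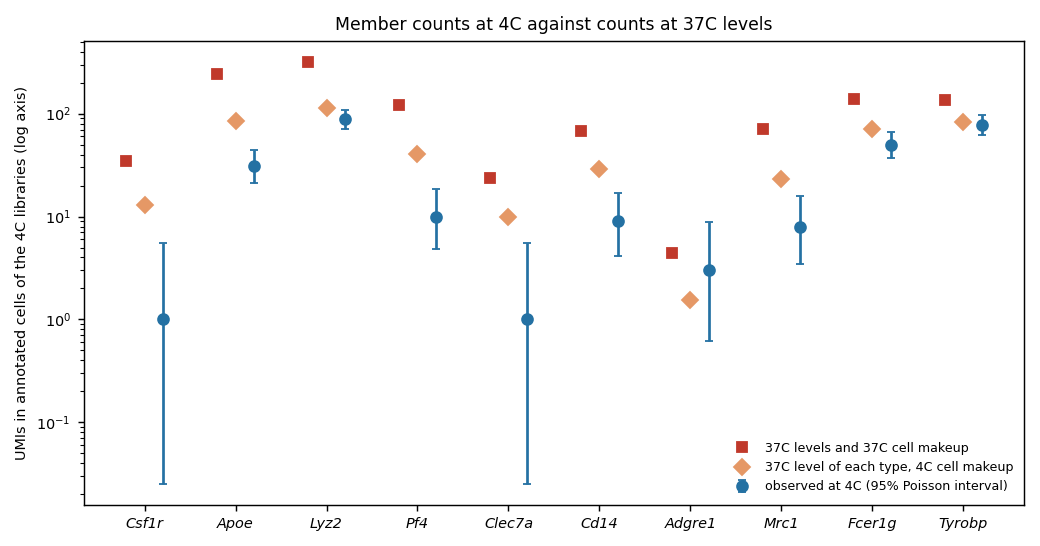
Counts of each gene in the annotated cells of the 4C libraries on a log axis. Circles with bars are observed counts with 95% Poisson intervals, diamonds the counts expected from the 37C level of each cell type, and squares those expected from 37C levels and 37C cell makeup. The bar reaches the diamond for Adgre1 and Tyrobp and stays below it for the other 8 genes.

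Within annotated macrophages, Csf1r had 1001 and 901 CPM of macrophage UMIs in 37C without inhibitor and 805 and 1039.7 with it, against 0 and 0 in 4C without inhibitor and 0 and 378 with it. Cd14 had 2929.5 and 1992 CPM in 37C without inhibitor and 1573 and 779.8 with it, against 170 and 0 in 4C without inhibitor and 0 and 378 with it. These 2 of 8 tested genes did not overlap between temperatures, against 14.3% of the 196 genes tested in macrophages. With so few genes, 2 of 8 is near that background. The 4C values rest on 1 count of Csf1r and 2 of Cd14, and both genes could pass the low-count filter only through 37C. A UMI of Csf1r was found in 60 of 92 macrophages at 37C (65.2%, exact 95% interval 54.6 to 74.9) and in 1 of 17 at 4C (5.88%, 0.149 to 28.7). With cells thinned to 200 UMIs, the shares were 22.6% and 1.61%.

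Per macrophage, Lyz2 overlapped between temperatures. It had 8381 and 2751 CPM in 37C without inhibitor and 13276 and 5199 with it, against 6137 and 23599 in 4C without inhibitor and 3152 and 5291 with it. The highest value came from 3 macrophages, of which 1 held all 32 counts. At 4C, 5 of 17 macrophages held all 86 Lyz2 counts, whereas 76 of 92 held a UMI at 37C. The shares after thinning were 26.2% and 57.8%.

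Tyrobp had 2707 and 2799 CPM in 37C without inhibitor and 3712 and 3177 with it, against 1534 and 8112 in 4C without inhibitor and 3152 and 5669 with it. Apoe had 5674 and 5455 CPM at 37C without inhibitor and 7095 and 6931 with it, against 2728 and 737 at 4C without inhibitor and 5516 and 1134 with it. The Apoe value of 5516 CPM comes from the single macrophage of 4C with inhibitor A, and it alone overlaps the 37C range.

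Pooled over libraries, the ratio of 37C to 4C CPM per macrophage was 2.69 for Apoe (95% counting interval 1.84 to 4.11), 3.71 for Pf4 (2.00 to 7.80), 2.696 for Mrc1 (1.35 to 6.31), 1.69 for Fcer1g (1.11 to 2.68), 1.12 for Lyz2 (0.901 to 1.41) and 0.925 for Tyrobp (0.666 to 1.32). For genes with 1 to 3 counts at 4C it was 10.2 for Csf1r (1.80 to 407), 9.49 for Cd14 (2.60 to 78.8), 6.89 for Clec7a (1.204 to 275) and 0.432 for Adgre1 (0.124 to 2.32). These intervals treat UMIs as independent draws and leave out the spread between cells and libraries.

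With that spread, edgeR's quasi-likelihood test on macrophage sums called 0 of the 8 tested genes (0% of 196 genes in either direction), and of the 7 genes that DESeq2 called (3.57%), 0 were among the 8. Unadjusted p was under 0.05 for 3 of the 8 (Csf1r, Cd14 and Pf4) and for 30 of all genes. Cd14 was at 3.22 ± 0.84 on the log2 scale (SE, adjusted p = 0.0624 by edgeR) and Csf1r at 3.09 ± 0.95 (0.105). Pf4 was at 1.69 ± 0.78, Apoe at 1.22 ± 0.57, Mrc1 at 1.12 ± 0.65 and Fcer1g at 0.52 ± 0.49. Lyz2 (-0.26 ± 0.69) and Tyrobp (-0.61 ± 0.54) had lower values at 37C, with signs that turned among the alternatives, from -1.08 to 1.68 and from -0.90 to 1.32. The median of the 8 was 1.17, against 0.13 over all genes tested. It carries the selection by the low-count filter, which Csf1r and Cd14 could pass only through 37C.

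**Figure D4:**
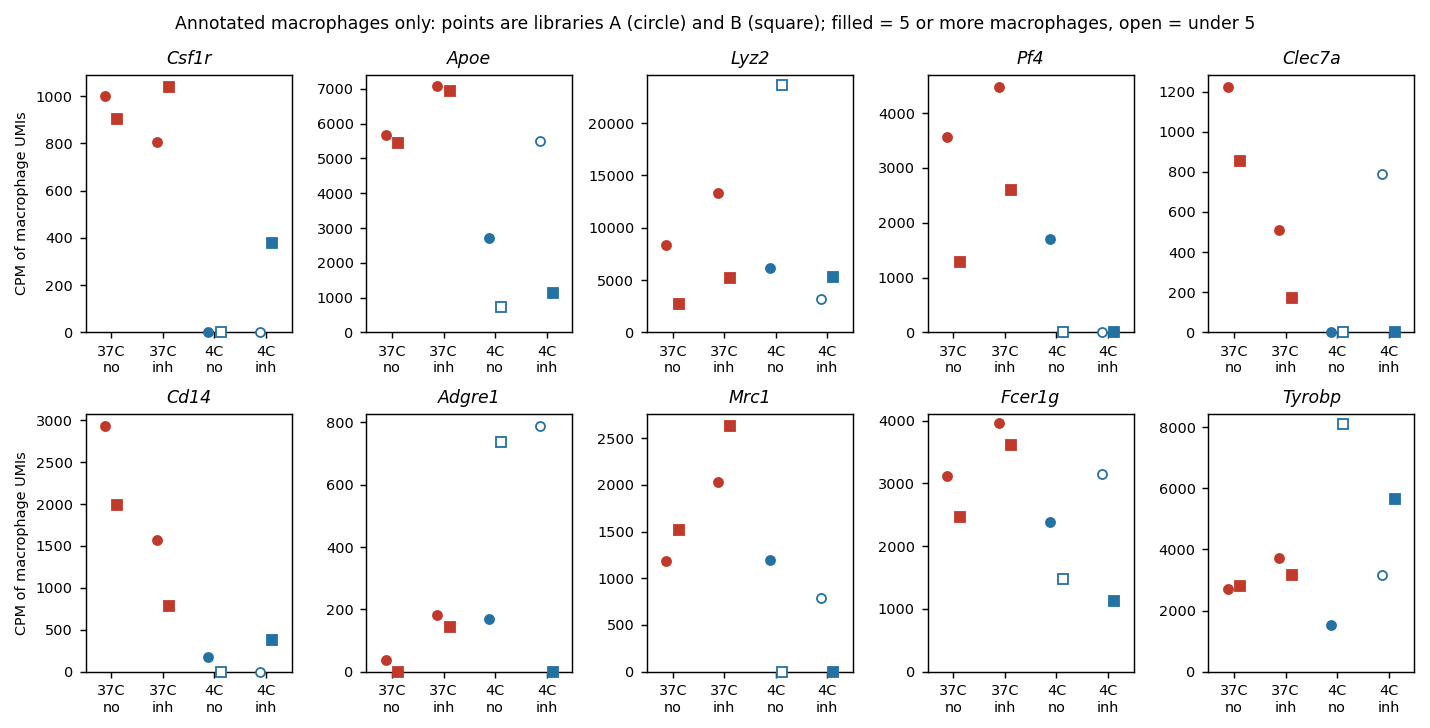
Level of each gene within annotated macrophages, in CPM of macrophage UMIs, by group. Circles are aliquot A and squares aliquot B, filled where the library held at least 5 macrophages and open where it held fewer. The 37C points of Csf1r and Cd14 lie above their 4C points, which rest on 1 and 2 counts. The highest points of Lyz2 and Tyrobp are 4C without inhibitor B, which held 3 macrophages.

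Outside macrophages, 2 of the 10 genes could be tested. Fcer1g (-0.64 ± 0.41, adjusted p = 0.462) and Tyrobp (-0.64 ± 0.36, 0.393) were not called by edgeR's quasi-likelihood test in the sum of tumour, T and NK cells. That is 0 of 2, against 1.74% of 2822 genes called higher and 1.56% lower, with 0 of the 2 and 452 of all genes at an unadjusted p under 0.05 and 0 of the 2 called by DESeq2, against 0.638% of all genes. In NK cells alone Tyrobp had 1955 CPM at 37C and 1556 at 4C (61 and 32 counts), and Fcer1g 1282 and 1070.0 CPM (40 and 22 counts).

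Some annotated macrophages held markers of other cell types. Markers of mast cells and basophils (Cpa3, Fcer1a, Ms4a2, Mcpt8 and Gata2) reached at least 2 UMIs in 5 of 92 annotated macrophages at 37C and in 4 of 17 at 4C, with 3 to 111 UMIs per cell. By library (A and B) these cells were 2 and 1 in 37C without inhibitor, 2 and 0 in 37C with inhibitor, 2 and 1 in 4C without inhibitor, and 0 and 1 in 4C with inhibitor, and the difference in share between temperatures was not tested. Those 9 cells held 0 counts of Csf1r, Lyz2, Pf4, Clec7a, Cd14 and Mrc1, 5 of Apoe and 1 of Adgre1. They did hold 20 counts of Fcer1g and 19 of Tyrobp, each in 7 of the 9 cells. The FcR gamma chain is a known subunit of the IgE receptor of mast cells and basophils. Neutrophil markers (without Mmp9) reached 2 UMIs in 2 further cells at each temperature.

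The summed level of the 5 mast cell and basophil markers in macrophages was 2439 CPM at 37C (57.8 to 5822 over libraries) and 14636 CPM at 4C (0 to 26253), with all 5 markers detected. That of the 7 neutrophil markers listed in the library tables was 976 CPM (111 to 1298) and 5747 CPM (0 to 43510.0), with Ly6g at 0. The 5 monocyte markers summed to 5766 CPM (5413 to 6689) and 9428 CPM (4091 to 18141). The 12 macrophage markers, which include Csf1r, Apoe, Lyz2, Pf4, Adgre1 and Mrc1, summed to 27898 CPM at 37C and 15354 CPM at 4C. At most 3 UMIs of these 12 were found in 14 of 92 annotated macrophages at 37C and in 11 of 17 at 4C, a limit set after the values were seen.

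With the 13 cells holding mast cell, basophil or neutrophil markers left out, a choice made after seeing the data, 85 macrophages at 37C and 11 at 4C remained. The ratio of 37C to 4C was then 6.70 for Csf1r (95% counting interval 1.18 to 267), 12.8 for Cd14 (2.27 to 507), 2.48 for Pf4 (1.34 to 5.21), 1.79 for Apoe (1.22 to 2.73) and 1.81 for Mrc1 (0.906 to 4.24). It was 1.66 for Fcer1g (0.994 to 2.98), 0.737 for Tyrobp (0.511 to 1.10) and 0.680 for Lyz2 (0.546 to 0.858). These intervals cover counting error only and leave out the spread between cells, and 5 cells held all 86 counts of Lyz2 at 4C. Over all annotated cells without these 13, edgeR still called 8 of the 9 genes higher at 37C. Within macrophages it then called 0 of the 6 genes it could test, and Csf1r and Cd14 were not among them.

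**Figure D5:**
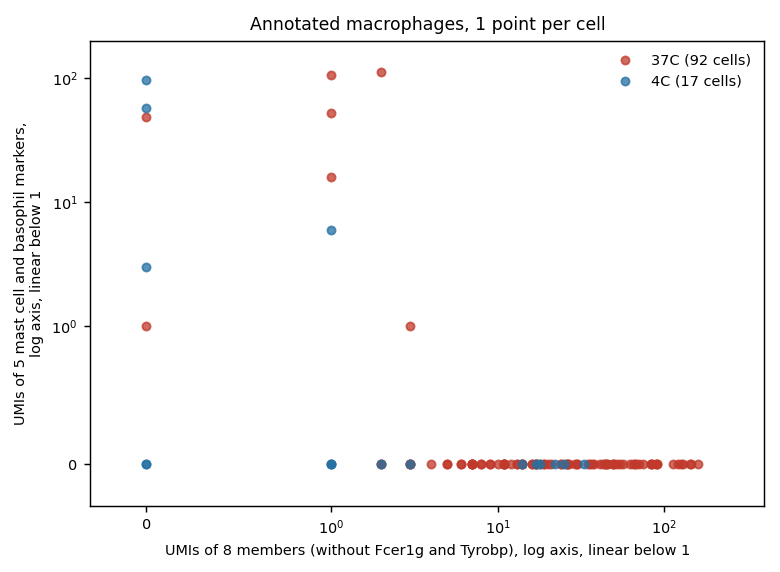
Each point is 1 annotated macrophage, red at 37C and blue at 4C. The horizontal axis gives its UMIs of the 8 genes other than Fcer1g and Tyrobp and the vertical axis its UMIs of the 5 mast cell and basophil markers, both logarithmic above 1 and linear below it. Cells with many marker UMIs hold at most 2 UMIs of the 8 genes, and cells with many UMIs of the 8 genes hold no marker.

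Genes of the pathways around these receptors were taken from 4 lists. Of 22 ITAM partners and signalling genes, 8 were tested, and 3 were higher at 37C averaged over inhibitor in edgeR's quasi-likelihood test: the Fc receptor genes Fcgr2b (2.33 ± 0.45, adjusted p = 0.00406) and Fcgr3 (1.73 ± 0.41, 0.0176) and the C-type lectin gene Clec4n (4.70 ± 1.18, 0.0253). That is 3 of 8, against 2.74% of all genes called higher. The median of the 8 was 1.398, against 0.04 over all genes. Fcgr2b is on the list although its product, an inhibitory receptor, does not pair with the FcR gamma chain or DAP12. Within macrophages Fcgr2b was at 0.61 ± 0.50 and Fcgr3 at -0.24 ± 0.50, and neither was called. Trem2, a lipid receptor that signals through DAP12, had 57 of its 57 annotated counts in macrophages, 53 at 37C and 4 at 4C, which were 386 and 359 CPM of macrophage UMIs.

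Of 13 genes of the CSF1 receptor pathway and macrophage regulators, 9 were tested and 0 called by edgeR, against 2.74% of all genes called higher and 1.24% lower. Their median was 0.18, and with so few genes a count of 0 is near that background. In edgeR's test Spi1, which encodes PU.1, was at 2.08 ± 0.77 (adjusted p = 0.147). The ligand gene Csf1 had 61 of its 79 annotated counts in tumour cells and 9 in macrophages, while its receptor gene Csf1r had 7 of 136 in tumour cells. Of the 8 lipopolysaccharide recognition genes 2 were tested, and of 11 lipid handling genes 2 were tested, with 0 called in either list, which the same background would also give. Lbp, whose product passes lipopolysaccharide to CD14, had all 46 of its counts in tumour cells, and the lipoprotein receptor gene Lrp1 had 104 of 171 in macrophages.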

How the data were processed

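Single cells were captured on the ddSEQ system (SureCell chemistry, 3' ends), per the labels' protocols. The 8 deposited library tables hold raw counts, UMIs per gene and barcode, as the authors made them with UMI-tools, STAR 2.7.1a, featureCounts 1.6.0 and SAMtools on GRCm38, per the submitters' processing notes, which also name Seurat. Values in the deposited expression table are on a natural log scale, ln(1 + x), where x is scaled to 10000 per cell. Of its 455732 values above 0, 99.986% were proportional to the raw counts within a tolerance of 0.001. Filters, doublet handling and clustering are not described in the sources used here. Cell types are those of the deposited annotation, and no doublet caller was run.

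Symbols were given to 17520 of 17580 identifiers, 12505 of them at the same version. Raw counts were summed per library over annotated cells, macrophages or other annotated cells. Sums were filtered by filterByExpr, scaled by TMM and fitted with edgeR 4.0.16 (R 4.3.3), 4 groups for all sums and additive temperature and inhibitor for macrophages, where a 4C library with 1 macrophage is taken to vary like the others. Calls are at an adjusted p under 0.05 over all genes tested. The scripts were tested on simulated counts. Intervals are exact (Poisson, conditional binomial or Clopper-Pearson), and floors are 3 counts. Both cover counting error only. Sequences are from RefSeq. Python 3.11.15 and SciPy 1.17.1 gave the remaining values.

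The 10 genes, the pathway lists and the marker lists were chosen with earlier results of these data known. The text names all 10, those list genes that were called and the most similar genes by correlation. Spi1, Trem2, Csf1, Lbp, Lrp1 and the Fc receptor values within macrophages were added after their values were seen. Of the marker lists, the text uses those of macrophages, monocytes, neutrophils, T cells, NK cells, and mast cells and basophils.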

Additional observations from a re-analysis of the deposited data

Results flagged for a closer look

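The comparisons above use annotated cells, yet 8300 of the 13064 counts of the 10 genes (63.5%) lay in barcodes that the deposited annotation does not name. Most UMIs of all genes lay there too, so such a share is not particular to the 10 genes. Annotated cells held 718543 of 2362315 UMIs at 37C and 185425 of 464064 at 4C. Among the 10 genes the unannotated share ran from 44.5% for Csf1r to 75.8% for Clec7a. Over all barcodes, libraries pooled, Csf1r had 100 CPM at 37C (237 counts) and 17.2 CPM at 4C (8 counts). In annotated cells it had 188 and 5.39 CPM. Barcodes with under 50 UMIs, 7659 at 37C and 11144 at 4C, held Lyz2 at 3900 CPM at 37C and 672 CPM at 4C, and Apoe at 1916 and 272 CPM. In T cells of the same temperatures Lyz2 had 123 and 25.1 CPM and Apoe 85.9 CPM and 0 counts. Macrophages had 8664 and 7722 CPM of Lyz2. What these small barcodes hold, free RNA or broken cells, was not tested.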

How the results depend on the processing

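The counts of the 10 genes called were computed again under each alternative, and no called gene changed its direction. Thinning to the smallest library total called 5 genes for temperature averaged over inhibitor (7 tested, against 8 called of 9), 0 without inhibitor and 1 with it, in a test of 432 genes. DESeq2's Wald test called 2 without inhibitor and 3 with it, against 4 and 6. Over all barcodes 7 were called without inhibitor, 3 for the inhibitor at 37C (Apoe, Mrc1 and Lyz2) and 1 for the interaction (Lyz2). With no filter on low counts 2 were called for the inhibitor at 37C, 2 for the interaction and 6 for temperature within macrophages, where the median log2 difference of all genes moved from 0.13 to 1.42. The causes of these differences were not tested.

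Leaving out 1 library at a time gave 7 to 9 called genes for temperature averaged over inhibitor, 3 to 6 without inhibitor, 2 to 8 with it, 0 to 5 for the inhibitor at 37C, 0 to 1 for the inhibitor at 4C, 0 to 3 for the interaction, 0 to 1 within macrophages and 0 in other cells. Pf4 was called within macrophages without 4C no inhibitor A, which held its 10 counts at 4C.

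The letters A and B share only a letter: deviations of libraries with the same letter had correlations of -0.03 to 0.24 over 6 pairs of groups. With the letter as a replicate block, 1 gene (Lyz2) was called for the inhibitor at 37C, 8 of 9 for temperature averaged over inhibitor, 5 rather than 4 without inhibitor (with Pf4, adjusted p = 0.0261 by edgeR) and 7 rather than 6 with it (with Cd14, 0.0386). Other calls did not change.

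Thinned macrophage sums could not be fitted, and thinned sums of other cells tested none of the 10 genes. The 17 macrophages at 4C limit every value per cell.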
